A study of Mus musculus with 15 samples.

Results

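The genes described here are the enzymes of sterol and fatty acid synthesis together with the proteins that control that synthesis and move sterols in and out of cells. They were taken as the entries of the expression table whose gene symbol was on a list of 31, and 30 of the 31 had an entry among the 23244 in the table. Tm7sf2, a sterol reductase, was not analysed here. The 30 were grouped by role into 7 genes of the mevalonate steps, 3 from squalene to lanosterol, 6 from lanosterol to cholesterol, 4 regulators, 6 of fatty acid synthesis and 4 of sterol transport and efflux.

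RNA-seq libraries came from optic tissues that self-organized in SFEBq culture, a method in which mouse embryonic stem (ES) cells are reaggregated in low-adhesion wells and form retinal epithelium. All 15 libraries derived from 1 ES line, EB5 Rx::GFP+/-, in which GFP reports the eye field gene Rax, and they formed 5 groups of 3. Day 10 Rx::GFP+ tissue was picked by forceps and collected at once. The other 4 groups were the same kind of explant moved to retinal maturation medium, either with 5 ng/ml human recombinant bFgf and 10% fetal bovine serum (+Fgf, towards neural retina) or with the GSK3 inhibitor CHIR99201 at 3 µM for the first 24 hours and at 1 µM after that (+Wnt, towards retinal pigmented epithelium), and collected at Day 12 or Day 15. Serum was listed for the +Fgf medium only, so bFgf and serum cannot be told apart in any comparison of +Fgf with +Wnt. No group was kept in maturation medium without either addition. Time, explantation, the change of medium and the stimulation itself therefore cannot be told apart in any comparison with Day 10. These are bulk samples, in which fewer cells of a type and less RNA per cell cannot be told apart, and the 3 samples of a group are called biological replicates with no word on whether they came from separate cultures, so p-values measure the spread between these samples, which may be technical.

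Cells make cholesterol from acetyl-CoA. The mevalonate steps build isoprenoid units, squalene synthase and lanosterol synthase assemble and close the sterol skeleton, and the late enzymes trim lanosterol to cholesterol. When sterol in the endoplasmic reticulum is low, SCAP escorts the membrane-bound SREBP factors to the Golgi, where they are cut and released to switch on the genes of this pathway through sterol response elements in their promoters, while INSIG1 holds SCAP back when sterol is plentiful. SREBP-2, encoded by Srebf2, acts mainly on sterol genes and SREBP-1, encoded by Srebf1, mainly on fatty acid genes. The liver X receptors respond to oxysterols and switch on export through ABCA1, ABCG1 and apolipoprotein E, and developing retina and pigmented epithelium are both known to make sterol and to export it.

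The promoters were searched for these elements because most of the members rose together from Day 10. RefSeq promoter windows of 300 bases, from 250 before to 50 after each start (GRCm38.p6), were on hand for 23 of the 30 members. The sterol response element letters TCACNCCAC, read on both strands, occurred in 1 of these 23 members, Hmgcs1. That is 1 of the 31 windows of members (3.23%), against 1.24% of all 32851 promoter windows. The CCAAT box, bound by the factor NF-Y that is known to act beside SREBP, occurred in 17 of the 23 members and in 58.1% of their windows, against 37.4% of all windows. The GC box GGGCGG occurred in 18 members and 67.7% of their windows, against 35.7% of all. The E-box CACGTG occurred in 6 members and 22.6% of their windows, against 7.15% of all. By gene, these motifs occurred, in the same order, in 1.44%, 41.1%, 38.2% and 8.09% of all 27025 genes, expressed here or not. Some members had more than 1 window. None of these motifs is contained in another, and a match is a description of the window only. The windows of Hmgcs1, the 1 member with the sterol response letters, and of Insig1, which is both a regulator and a known SREBP target, are shown 5′ to 3′ on the plus strand, with matches to TCACNCCAC and to CCAAT on either strand in capitals. In Hmgcs1 the sterol response match starts 137 bases before the RefSeq start and 4 CCAAT matches surround it. In Insig1 there was 1 CCAAT match and no match to TCACNCCAC in this window.
Hmgcs1 chr13:119690101-119690400: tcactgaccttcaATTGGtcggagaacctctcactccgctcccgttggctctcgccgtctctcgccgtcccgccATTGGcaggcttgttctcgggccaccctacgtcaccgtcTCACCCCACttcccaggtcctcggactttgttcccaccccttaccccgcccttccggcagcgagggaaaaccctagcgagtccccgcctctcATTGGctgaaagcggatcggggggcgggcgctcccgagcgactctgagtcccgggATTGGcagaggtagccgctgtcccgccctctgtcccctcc
Insig1 chr5:28071162-28071461: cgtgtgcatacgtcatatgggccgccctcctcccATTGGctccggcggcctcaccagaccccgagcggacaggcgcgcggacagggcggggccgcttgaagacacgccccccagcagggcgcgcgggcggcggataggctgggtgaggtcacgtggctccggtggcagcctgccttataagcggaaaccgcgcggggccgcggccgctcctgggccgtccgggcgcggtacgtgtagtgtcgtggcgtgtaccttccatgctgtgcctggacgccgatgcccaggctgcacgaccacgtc

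The recovered reads per library ranged from 12556998 to 16175450, and 13845 of the 23244 entries passed the filter on low values, among them all 30 members. Levels are given as the deposited CPM (counts scaled to the size of the library). The labels of the groups were checked against fixed markers. Rax, the eye field factor, was at 209 to 230.3 CPM in Day 12 +Fgf and 287 to 343 CPM in Day 15 +Fgf, against 39.9 to 51.1 and 5.15 to 5.83 CPM in the +Wnt groups. Mitf and Tyr, a factor and an enzyme of pigment cells, reached 169 to 191 and 542 to 667 CPM in Day 15 +Wnt, against 17.8 to 19.6 and 23.3 to 30.5 CPM in Day 15 +Fgf. Of the 9 markers of pigmented epithelium, Rpe65, the isomerase of the visual cycle, had 0 reads in 14 libraries and 1 read in the other, and Best1 stayed under 0.5 CPM in all 15, so these 2 defining markers of mature pigmented epithelium were at or near 0.

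Per kilobase of transcript, the members ranged widely in level. At Day 10 the highest was Scd2, a stearoyl-CoA desaturase, at 265 CPM per kb, followed by Apoe at 215, Acly at 135 and Hmgcs1 at 131 CPM per kb. The lowest were the exporters Abca1 at 0.938 and Abcg1 at 0.279 CPM per kb. At Day 15 +Wnt, Apoe at 761 CPM per kb stood above Scd2 at 615, while at Day 15 +Fgf Scd2 was at 452, Hmgcs1 at 266 and Apoe at 69.9 CPM per kb.

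The first question was how these genes changed as the Day 10 epithelium was carried along each path. Most rose on both paths. In Day 12 +Fgf against Day 10, 25 of the 30 members were higher and 3 lower by limma at an adjusted p under 0.05, where 27.9% of all 13845 genes were higher and 27.8% lower (55.7% called). In Day 12 +Wnt, 21 were higher and 1 lower, where 30.6% of all genes were higher and 29.6% lower (60.2% called). In Day 15 +Fgf, 24 were higher and 3 lower, against 36.2% and 36.4% of all genes (72.6% called). In Day 15 +Wnt, 23 were higher and 2 lower, against 39.6% and 40.2% of all genes (79.8% called). The median log2 fold changes of the members in these comparisons were 0.43, 0.38, 0.51 and 0.71, while the median over all genes lay between -0.0048 and 0.0085. These comparisons share the Day 10 samples. The RNA integrity number, a measure of how intact each sample's RNA was, was lower at Day 10 than in any Day 12 library. With it as a covariate, 20 members were higher and 2 lower in Day 12 +Fgf, where 2840 and 2768 of 13845 genes were. In Day 12 +Wnt, 16 were higher and 1 lower, where 3485 and 3456 genes were. At Day 15 the counts with this covariate were 24 and 3 with +Fgf, where 4577 genes were higher and 4637 lower. With +Wnt they were 21 and 3, where 5034 and 5117 genes were. After quantile normalization the median over all genes was -0.11 on the log2 scale in Day 15 +Wnt against Day 10, in place of -0.0048.

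From Day 12 to Day 15 the rise went on in fewer genes. With +Fgf, 11 members rose and 3 fell between these days, against 27.2% higher and 29.9% lower of all genes (57.1% called). Without Day 12 +Fgf replicate 3 the split with +Fgf was 8 and 5, where 3529 of 13845 genes were higher and 3845 lower. With the RNA integrity number as a covariate it was 10 and 1, where 1878 genes were higher and 1713 lower. With +Wnt, 18 rose and 4 fell, against 32.5% and 35.5% of all genes (68% called). The members' medians on the log2 scale were 0.047 with +Fgf and 0.30 with +Wnt, against -0.019 and -0.021 over all genes. With +Wnt, the split was 19 higher and 1 lower after median-of-ratios scaling, where 4814 of 13845 genes were higher and 4473 lower. By edgeR on recovered reads it was 21 higher and 1 lower, where 4938 genes were higher and 4324 lower. In the main fit 4504 genes were higher and 4913 lower, so the balance over all genes moved in the same direction. The members' split was 19 and 5 with the RNA integrity covariate, where 4493 genes were higher and 4893 lower. It was also 19 and 5 in a fit of the compared groups alone, where 4605 and 4876 genes were. Without Day 15 +Wnt replicate 3 it was 18 and 5, where 4257 and 4624 genes were.

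The second question was whether +Fgf and +Wnt differed on the same day. At Day 12, 10 members were higher and 6 lower in +Fgf than in +Wnt, so that 53.3% were called where 51.5% of all genes were (26.3% higher, 25.2% lower). Without Day 12 +Fgf replicate 2 the split was 6 higher and 6 lower, where 3330 of 13845 genes were higher and 3231 lower. At Day 15, 7 were higher and 10 lower in +Fgf, so that 56.7% were called where 68.7% of all genes were (38% higher, 30.6% lower). The shares of members called were thus near or below the background, and the members' median log2 values were 0.042 at Day 12 and -0.011 at Day 15, against -0.0021 and 0.051 over all genes. The Day 15 split was 4 higher and 11 lower after median-of-ratios scaling, where 4892 of 13845 genes were higher and 4466 lower. It was 5 and 14 after quantile normalization, where 5267 and 4289 genes were. By edgeR it was 4 and 12, where 4653 and 4665 genes were. In the main fit 5267 genes were higher and 4238 lower. The members' split was 6 and 7 with the RNA integrity covariate, where 3564 genes were higher and 2798 lower. Without Day 15 +Wnt replicate 2 it was 8 and 9, where 5006 and 4061 genes were. The change from Day 12 to Day 15 itself differed between +Fgf and +Wnt in 14 members, 46.7% against 47.9% of all genes. The log2 change was lower with +Fgf than with +Wnt for 12 of the 14 (20.9% of all genes) and higher for 2 (27%). Without Day 12 +Fgf replicate 2 these counts were 11 and 5, where 2782 of 13845 genes were lower and 3507 higher. The median of this difference was -0.069 over the members and 0.058 over all genes. With the RNA integrity number as a covariate, 7 members were called for this difference, where 3842 of 13845 genes were. These 7 were 4 of the 14 (Abca1, Apoe, Acaca and Srebf1, all lower) and 3 others (Acat2, Dhcr7 and Idi1, all higher). The Day 15 +Fgf libraries had the lowest RNA integrity of the 5 groups, and its part in these results was not tested further.

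**Figure D1:**
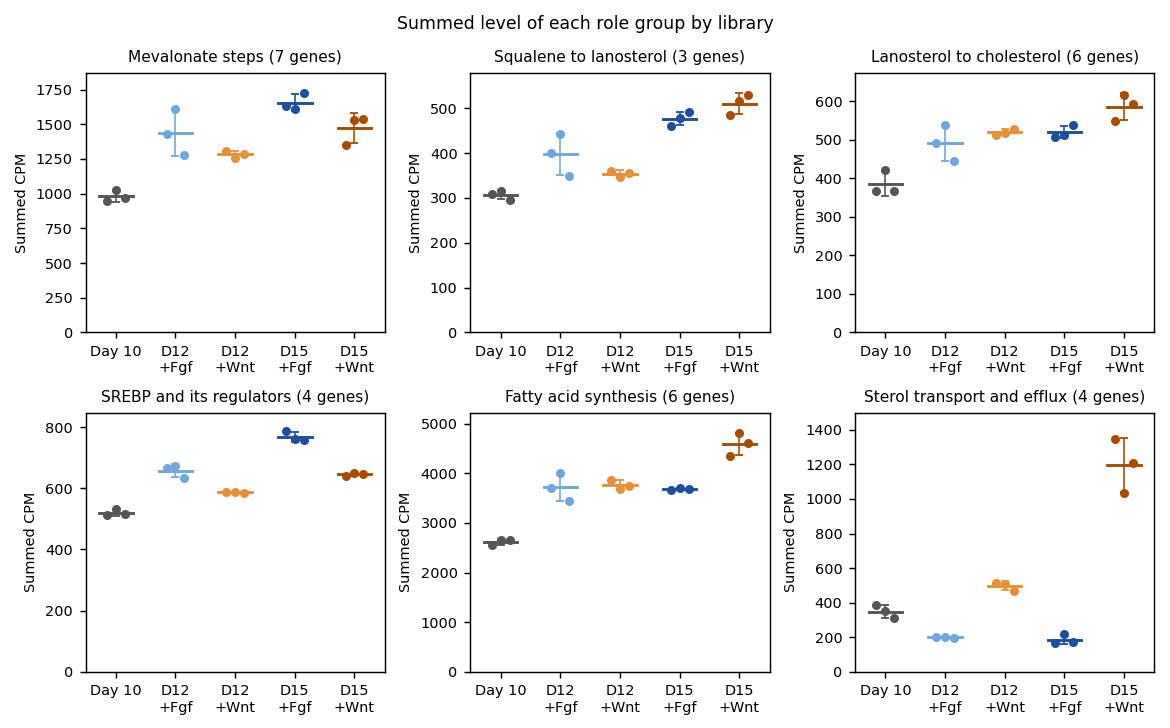
Summed CPM of each role group in every library (points), with the group mean (line) and SD (bar), 3 libraries in each of the 5 groups. All axes start at 0. The mevalonate, squalene and late sterol sums rise above Day 10 in all other groups. The transport and efflux sum is highest in Day 15 +Wnt, at 1034 to 1349 CPM, where Apoe makes up most of it. Abcg1 and Stard4 were not called between +Fgf and +Wnt at Day 15.

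The summed level of the 16 sterol synthesis enzymes was 1673 ± 77.8 CPM (SD, n = 3) at Day 10, 2329 ± 262 in Day 12 +Fgf and 2158 ± 34.2 in Day 12 +Wnt. At Day 15 it was 2653 ± 87.2 CPM with +Fgf and 2572 ± 162 CPM with +Wnt. Every one of the 12 later libraries lay above the 3 Day 10 libraries, while the +Fgf and +Wnt libraries overlapped on both days. Of these 16 enzymes, 14, 13, 14 and 13 rose from Day 10 in the +Fgf and +Wnt groups of Day 12 and then of Day 15, and none fell by limma. Of all genes, 27.9%, 30.6%, 36.2% and 39.6% rose and 27.8%, 29.6%, 36.4% and 40.2% fell in these comparisons. Counting genes of the same 16 at Day 15, 4 were higher and 4 lower in +Fgf than in +Wnt, where 38% of all genes were higher and 30.6% lower (68.7% called).

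In the mevalonate steps, which turn acetyl-CoA into farnesyl diphosphate, 7 of 7 genes rose in Day 12 +Fgf and in Day 15 +Fgf, and 6 of 7 in each +Wnt group, where the isomerase Idi1 did not pass the test. Of all genes, 27.9% to 39.6% rose in these comparisons. Hmgcs1, the cytosolic HMG-CoA synthase whose promoter is printed above, was at 442, 471 and 448 CPM in the Day 10 libraries, at 708, 819.8 and 619 CPM in Day 12 +Fgf and at 653, 586 and 600.4 CPM in Day 12 +Wnt. At Day 15 it was at 919.7, 889 and 952 CPM with +Fgf and 711, 841 and 816 CPM with +Wnt. All later libraries stood above Day 10, and the Day 15 +Fgf libraries above those of Day 15 +Wnt. Against Day 10, the log2 fold change was 1.02 ± 0.081 (SE, limma adjusted p = 6.89e-09) in Day 15 +Fgf, a 2.03-fold rise in the mean, and 0.80 ± 0.081 (SE, limma adjusted p = 9.44e-08) in Day 15 +Wnt. Between +Fgf and +Wnt it was 0.21 ± 0.081 at Day 12 (adjusted p = 0.035) and 0.22 ± 0.081 at Day 15 (limma adjusted p = 0.0211). Either of these calls could be lost by leaving out 1 library, mostly with a fold of about the same size. The Day 12 value was 0.11 without Day 12 +Fgf replicate 2, 0.22 without +Fgf replicate 1, 0.18 without +Wnt replicate 2 and 0.20 without +Wnt replicate 3, and the Day 15 value was 0.20 without +Fgf replicate 3 and 0.15 without +Wnt replicate 1, none of them past the threshold for Hmgcs1.

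Mvd, the decarboxylase that makes isopentenyl diphosphate, set the Day 15 +Wnt tissue apart. It was at 31.8, 26.2 and 28.3 CPM at Day 10, 40.8, 43.3 and 38.7 CPM in Day 12 +Fgf and 40.4, 41.0 and 37.9 CPM in Day 12 +Wnt. It reached 44.4, 46.4 and 49.3 CPM in Day 15 +Fgf and 62.0, 63.0 and 67.4 CPM in Day 15 +Wnt. The Day 12 groups overlapped, and at Day 15 all +Wnt libraries were above all +Fgf libraries. For Day 15 +Wnt against Day 10 the log2 value was 1.15 ± 0.072 (SE, limma adjusted p = 1.75e-10), and +Fgf over +Wnt at Day 15 it was -0.46 ± 0.072 (SE, limma adjusted p = 2.77e-05). The change from Day 12 to Day 15 differed between the stimulations by -0.50 ± 0.10 (SE, limma adjusted p = 0.000721) on the log2 scale, and was not called with the RNA integrity covariate (-0.41). Pmvk, the kinase 1 step before, showed the same order, with 43.4, 45.3 and 50.3 CPM in Day 15 +Fgf and 60.3, 54.8 and 57.2 CPM in Day 15 +Wnt and a log2 change, +Fgf over +Wnt, of -0.31 ± 0.068 (SE, limma adjusted p = 0.000637).

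Idi1, which interconverts the isoprenoid building blocks, was higher with +Fgf than with +Wnt. Its levels were 209, 255 and 220.2 CPM at Day 10, 311, 336 and 274 CPM in Day 12 +Fgf and 286, 299.99 and 312 CPM in Day 15 +Fgf. With +Wnt they were 248.8, 246 and 264 CPM at Day 12 and 194, 229.9 and 231 CPM at Day 15, within or near the range of Day 10. +Fgf over +Wnt, the log2 fold change was 0.27 ± 0.082 (SE, limma adjusted p = 0.0103) at Day 12 and 0.46 ± 0.082 (SE, limma adjusted p = 0.000102) at Day 15. The Day 12 call was lost without Day 12 +Fgf replicate 2, at 0.21. Against Day 10, the Day 15 +Wnt value was -0.063 ± 0.082 (SE), not called, and turned to a called 0.22 after quantile normalization. Of the remaining genes, Fdps, the farnesyl diphosphate synthase, was higher in Day 12 +Fgf than in Day 12 +Wnt by 0.37 ± 0.069 (SE, limma adjusted p = 0.000286) and differed by 0.032 ± 0.069 at Day 15 (limma adjusted p = 0.695). Acat2, which joins acetyl-CoA units, was lower in Day 12 +Fgf than in Day 12 +Wnt by a log2 value of -0.27 ± 0.069 (SE, limma adjusted p = 0.0034). Mvk, mevalonate kinase, ranged from 24.9 to 30.6 CPM at Day 10 to 35.8 to 40.1 CPM in Day 12 +Fgf and was not called between the stimulations on either day (log2 values 0.0039 ± 0.078 and 0.12 ± 0.078, SE). The rise of Mvk in Day 15 +Wnt over Day 10, 0.20 ± 0.078 (SE), was no longer called without Day 10 replicate 2 (0.12), Day 15 +Wnt replicate 1 (0.18) or Day 15 +Wnt replicate 3 (0.19). Of Fdps exon bases, 26.7% also belong to the predicted gene Gm43738 on the same strand.

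From squalene to lanosterol, 3 of 3 genes rose in each comparison with Day 10 except Day 12 +Wnt, where 2 rose and Sqle did not pass. The share of all genes that rose was 27.9% to 39.6%, by comparison. Fdft1, squalene synthase, was at 101.46, 83.1 and 96.8 CPM at Day 10 and at 132, 148 and 116 and 108, 107 and 109 CPM in Day 12 +Fgf and +Wnt. It was at 151, 154 and 165 CPM in Day 15 +Fgf and 166, 169.7 and 188 CPM in Day 15 +Wnt. The order of the stimulations thus turned between the days, with all +Fgf libraries above all +Wnt libraries at Day 12 and all below at Day 15. +Fgf over +Wnt, the fitted log2 change was 0.28 ± 0.08 (SE, limma adjusted p = 0.00742) at Day 12 and -0.15 ± 0.08 (SE, limma adjusted p = 0.1) at Day 15, the latter past the threshold by edgeR on recovered reads (-0.21) and after quantile normalization (-0.31). The difference between the Day 12 to Day 15 changes was -0.44 ± 0.11 (SE, limma adjusted p = 0.00465) for Fdft1, a call lost with the RNA integrity covariate (-0.21). Fdft1 shares 18.3% of its exon bases with Ctsb, a lysosomal protease gene on the opposite strand, and reads there cannot be told apart where counting ignored strand. The Day 12 +Wnt rise of Fdft1, 0.21 ± 0.08 (limma adjusted p = 0.0367), lost its call without Day 10 replicate 2 (0.12) and without any 1 of the Day 12 +Wnt libraries (0.20 to 0.21).

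Lss, lanosterol synthase, closes the sterol ring. It was at 40.2, 42.0 and 41.0 CPM at Day 10 and at 82.0, 82.6 and 84.7 CPM in Day 15 +Fgf, with no overlap. In Day 15 +Wnt it was at 68.2, 72.7 and 78.8 CPM. The log2 fold changes from Day 10 were 1.01 ± 0.084 (SE, limma adjusted p = 1.31e-08) and 0.83 ± 0.084 (SE, limma adjusted p = 1.01e-07). Sqle, squalene epoxidase, rose to 228 to 243 CPM in Day 15 +Fgf and 250.1 to 274 CPM in Day 15 +Wnt from 158 to 191 CPM at Day 10. Its Day 12 +Fgf rise of 0.24 ± 0.072 (SE) was no longer called without Day 10 replicate 3 (0.18) or Day 12 +Fgf replicate 2 (0.17).

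Among the 6 late enzymes, 4 rose in Day 12 +Fgf, 5 in Day 12 +Wnt and 4 in each Day 15 group. In these comparisons 27.9% to 39.6% of all genes rose. Of the late enzymes, Dhcr7, the reductase of the last step to cholesterol, rose most. It was at 54.7, 55.9 and 53.7 CPM at Day 10, 80.5, 90.9 and 71.2 CPM in Day 12 +Fgf and 98.0, 95.4 and 100.4 CPM in Day 12 +Wnt. At Day 15 the +Fgf libraries held 101.32, 107 and 113 CPM and the +Wnt libraries 102, 114 and 113 CPM. The Day 12 groups did not overlap, with +Wnt above, and the Day 15 groups did. Relative to Day 10 the log2 change was 0.96 ± 0.071 (SE, limma adjusted p = 2.98e-09) and 1.00 ± 0.071 (SE, limma adjusted p = 1.05e-09) at Day 15, and +Fgf over +Wnt it was -0.28 ± 0.071 (SE, limma adjusted p = 0.00342) at Day 12. Nsdhl, a dehydrogenase that helps remove methyl groups from lanosterol, also stood lower in Day 12 +Fgf (61.6, 74.2 and 55.4 CPM) than in Day 12 +Wnt (76.7, 77.0 and 82.6 CPM), by -0.31 ± 0.083 (SE, limma adjusted p = 0.00451) on the log2 scale. The rise of Nsdhl in Day 12 +Fgf over Day 10, 0.26 ± 0.083 (SE), was no longer called without Day 10 replicate 1 (0.22) or Day 12 +Fgf replicate 2 (0.14).

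Sc5d, the sterol desaturase, had the widest Day 15 difference of the 4 late enzymes called between +Fgf and +Wnt there (Sc5d, Cyp51, Hsd17b7 and Ebp). It was at 39.0, 45.5 and 35.4 CPM at Day 10, 47.2, 48.5 and 41.9 CPM in Day 12 +Fgf and 51.7, 51.3 and 53.4 CPM in Day 12 +Wnt. It was at 35.3, 37.9 and 46.7 CPM in Day 15 +Fgf and 65.8, 65.2 and 63.97 CPM in Day 15 +Wnt. Day 15 +Fgf overlapped Day 10, and Day 15 +Wnt stood above every other library. The log2 fold change at Day 15, +Fgf over +Wnt, was -0.71 ± 0.096 (SE, limma adjusted p = 5.35e-06) and the difference between the changes from Day 12 was -0.52 ± 0.14 (SE, limma adjusted p = 0.00462), no longer called for Sc5d with the RNA integrity covariate (-0.225). Ebp, the sterol isomerase, was not called against Day 10 in any group and kept to 15.2 to 18.6 CPM at Day 10 and 14.9 to 15.8 CPM in Day 15 +Wnt, where it was lower than in Day 15 +Fgf (18.2 to 20.6 CPM, log2 0.32 ± 0.091 SE, limma adjusted p = 0.00524). Cyp51, the lanosterol demethylase, rose in every group, from 164 to 207 CPM at Day 10 to 244 to 285 CPM in Day 15 +Wnt. Hsd17b7, a reductase of the same stretch, was at 41.0 to 44.1 CPM at Day 10 and 50.02 to 56.4 CPM in Day 12 +Fgf and was not called in Day 15 +Wnt (0.081 ± 0.07, SE).

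**Figure D2:**
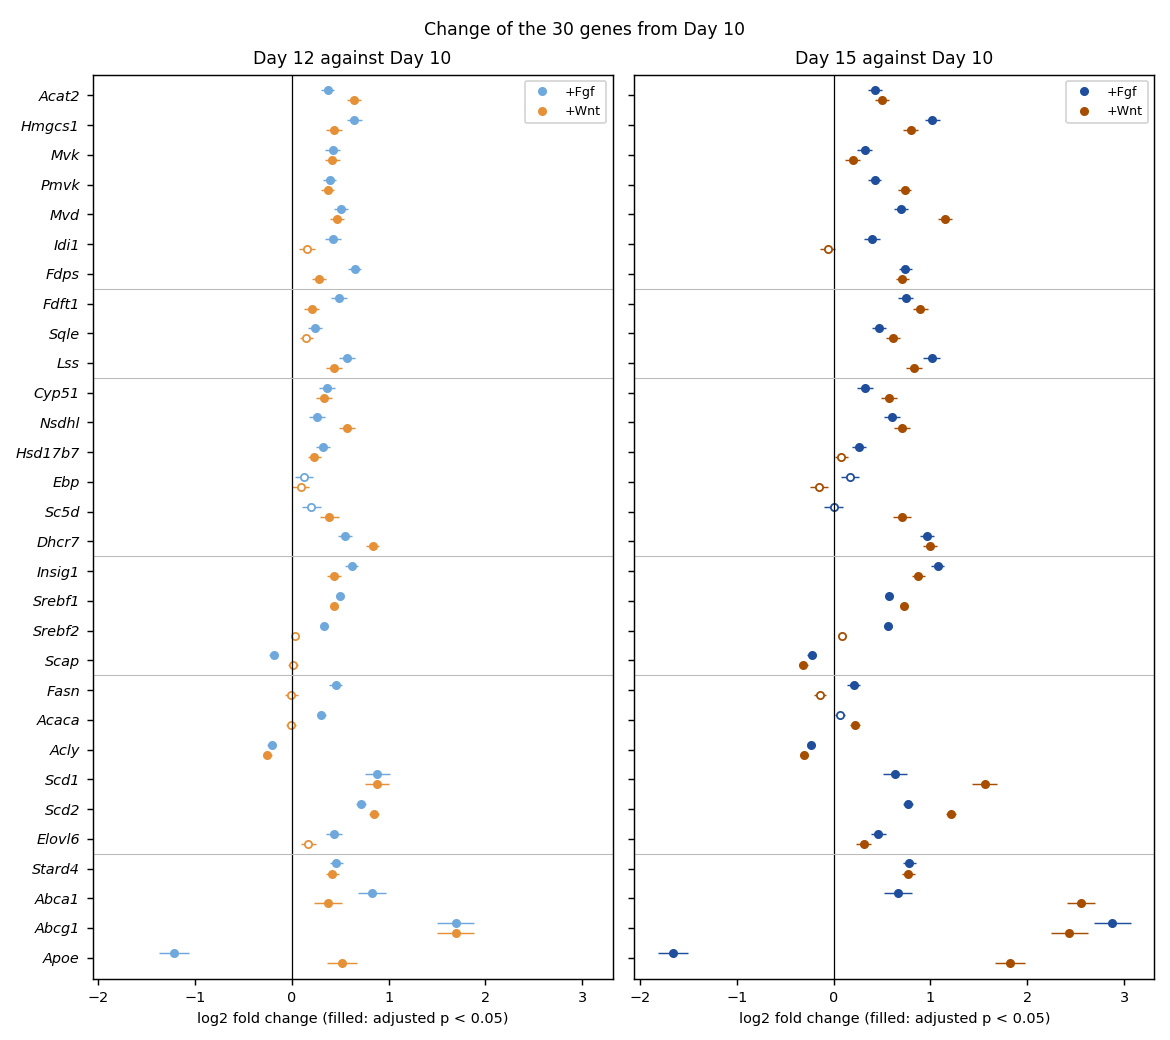
Log2 fold change from Day 10 (points) with its SE (bars) for the 30 genes in role order, at Day 12 (left) and Day 15 (right), for +Fgf (blue) and +Wnt (brown). Filled points passed an adjusted p of 0.05 by limma. Most sterol genes lie to the right of 0 in all 4 groups, Scap and Acly to the left in most, and Apoe on opposite sides for +Fgf and +Wnt.

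The 4 regulators did not move as 1 block. Insig1, which retains SCAP and is itself a known target of SREBP, was at 94.9, 86.2 and 87.4 CPM at Day 10. It was at 135, 159 and 121 CPM in Day 12 +Fgf and 121, 122 and 121 CPM in Day 12 +Wnt, and at 188, 187 and 191 and 159, 169 and 165 CPM in Day 15 +Fgf and +Wnt. Every later library was above Day 10, and at Day 15 all +Fgf libraries were above all +Wnt libraries. From Day 10, the change on the log2 scale was 1.07 ± 0.071 (SE, limma adjusted p = 7.04e-10) in Day 15 +Fgf, a 2.11-fold rise in the mean, and 0.88 ± 0.071 (SE, limma adjusted p = 4.81e-09) in Day 15 +Wnt. The smaller differences between stimulations, 0.18 ± 0.071 at Day 12 and 0.20 ± 0.071 at Day 15 (limma adjusted p = 0.0444 and 0.0209), were not called by edgeR (0.17 and 0.15). The Day 12 call for Insig1 was lost without +Fgf replicate 1 (0.19), +Fgf replicate 2 (0.071) or any +Wnt replicate (0.18), and the Day 15 call without +Fgf replicate 3 (0.19) or +Wnt replicate 1 (0.17).

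Srebf2, which encodes SREBP-2, separated the stimulations on both days. It was at 246, 276 and 256 CPM at Day 10. With +Fgf it was at 331, 328 and 318 CPM at Day 12 and 400.3, 375 and 369 CPM at Day 15, above every Day 10 library. With +Wnt it was at 267, 261 and 264 and 270.4, 277 and 275 CPM, within or beside the Day 10 range. The log2 fold change, +Fgf over +Wnt, was 0.30 ± 0.043 (SE, limma adjusted p = 2.04e-05) at Day 12 and 0.48 ± 0.043 (SE, limma adjusted p = 4.87e-08) at Day 15. Against Day 10 the +Wnt values were 0.031 ± 0.043 and 0.084 ± 0.043 (SE), the second past the threshold by edgeR (0.14) and without Day 10 replicate 2 (0.13). Srebf1, by contrast, rose in all 4 groups, from 83.0, 82.1 and 82.0 CPM at Day 10 to 124, 122 and 123 CPM in Day 15 +Fgf and 139, 135 and 135 CPM in Day 15 +Wnt. The Day 15 +Wnt libraries held the highest Srebf1, and +Fgf over +Wnt the log2 value was -0.15 ± 0.037 (SE, limma adjusted p = 0.00165). Scap, the escort of both factors, fell to 73.9, 77.1 and 73.4 CPM in Day 15 +Fgf and 71.3, 68.6 and 71.8 CPM in Day 15 +Wnt from 86.9, 86.9 and 89.2 CPM at Day 10, by log2 values of -0.23 ± 0.049 (SE, limma adjusted p = 0.000494) and -0.31 ± 0.049 (SE, limma adjusted p = 1.66e-05).

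The 6 genes of fatty acid synthesis were split. The desaturases rose in every group, the synthase and the carboxylase differed by stimulation, and Acly fell. Scd2, the member with the highest level per length at Day 10, was at 1417, 1441 and 1483 CPM at Day 10, 2359.5, 2588 and 2205 CPM in Day 12 +Fgf and 2656, 2568 and 2607 CPM in Day 12 +Wnt. At Day 15 it was at 2417, 2492 and 2493 CPM with +Fgf and 3184, 3523 and 3363 CPM with +Wnt. Day 15 +Wnt stood above all other libraries, 2.32-fold over Day 10 in the mean, with a log2 change of 1.21 ± 0.054 (SE, limma adjusted p = 3.06e-12) from Day 10 and of -0.44 ± 0.054 (SE, limma adjusted p = 1.54e-06) for +Fgf over +Wnt. Scd1 was at 81.8, 82.2 and 93.9 CPM at Day 10, 157, 201 and 126 CPM in Day 12 +Fgf and 167, 157 and 149.9 CPM in Day 12 +Wnt. It was at 122, 130.1 and 149 CPM in Day 15 +Fgf and 227, 286 and 251 CPM in Day 15 +Wnt. The Day 12 groups overlapped, and at Day 15 every +Wnt library was above every +Fgf library, by a log2 value for +Fgf over +Wnt of -0.93 ± 0.12 (SE, limma adjusted p = 5.12e-06). The Day 12 to Day 15 change of Scd1 differed by -0.94 ± 0.18 (SE, limma adjusted p = 0.000374), a call that was lost with the RNA integrity covariate (-0.54). Of the 25-base words of the Scd1 transcript, 6.54% also occur in Scd2.

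Fasn, the fatty acid synthase, was at 291, 319.8 and 295 CPM at Day 10 and rose to 436, 400.4 and 403 CPM in Day 12 +Fgf. In Day 12 +Wnt it was at 332, 279 and 294 CPM, overlapping Day 10. At Day 15 it was at 382, 344 and 320.1 CPM with +Fgf and 269, 278 and 274 CPM with +Wnt. The log2 fold change, +Fgf over +Wnt, was 0.46 ± 0.066 (SE, limma adjusted p = 2.26e-05) at Day 12 and 0.35 ± 0.066 (SE, limma adjusted p = 0.0002) at Day 15, and Fasn fell from Day 12 to Day 15 in +Fgf by a log2 value of -0.25 ± 0.066 (SE, limma adjusted p = 0.00456). The rise of Fasn in Day 15 +Fgf over Day 10 (0.21 ± 0.066, SE) lost its call without Day 15 +Fgf replicate 1 (0.14). The Day 15 +Wnt value of -0.14 ± 0.066, not called, turned to a called 0.14 after quantile normalization.

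Acaca, the acetyl-CoA carboxylase that supplies Fasn, crossed over between the days. It was at 125, 134 and 118 CPM in Day 12 +Fgf and 102, 99.7 and 100.95 CPM in Day 12 +Wnt, then at 111, 105 and 104 CPM in Day 15 +Fgf and 119, 123 and 113 CPM in Day 15 +Wnt. All +Fgf libraries were above +Wnt at Day 12 and all below at Day 15. The log2 values, +Fgf over +Wnt, were 0.31 ± 0.049 (SE, limma adjusted p = 5.35e-05) and -0.16 ± 0.049 (SE, limma adjusted p = 0.00992), and the difference between the changes was -0.47 ± 0.07 (SE, limma adjusted p = 3.92e-05). Acly, the ATP citrate lyase that makes cytosolic acetyl-CoA, was at 578, 611 and 591 CPM at Day 10 and lower in all 4 later groups, down to 460.1, 484 and 495 CPM in Day 15 +Wnt. Its log2 fold changes from Day 10 ran from -0.31 ± 0.046 in Day 15 +Wnt to -0.21 ± 0.046 in Day 12 +Fgf (SE), and none of them was called after quantile normalization (-0.088 to -0.0083). Elovl6, the elongase of palmitate, was at 81.6 to 95.1 CPM at Day 10 and 113 to 125 CPM in Day 15 +Fgf, a log2 rise of 0.46 ± 0.081 (SE, limma adjusted p = 6.96e-05).

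**Figure D3:**
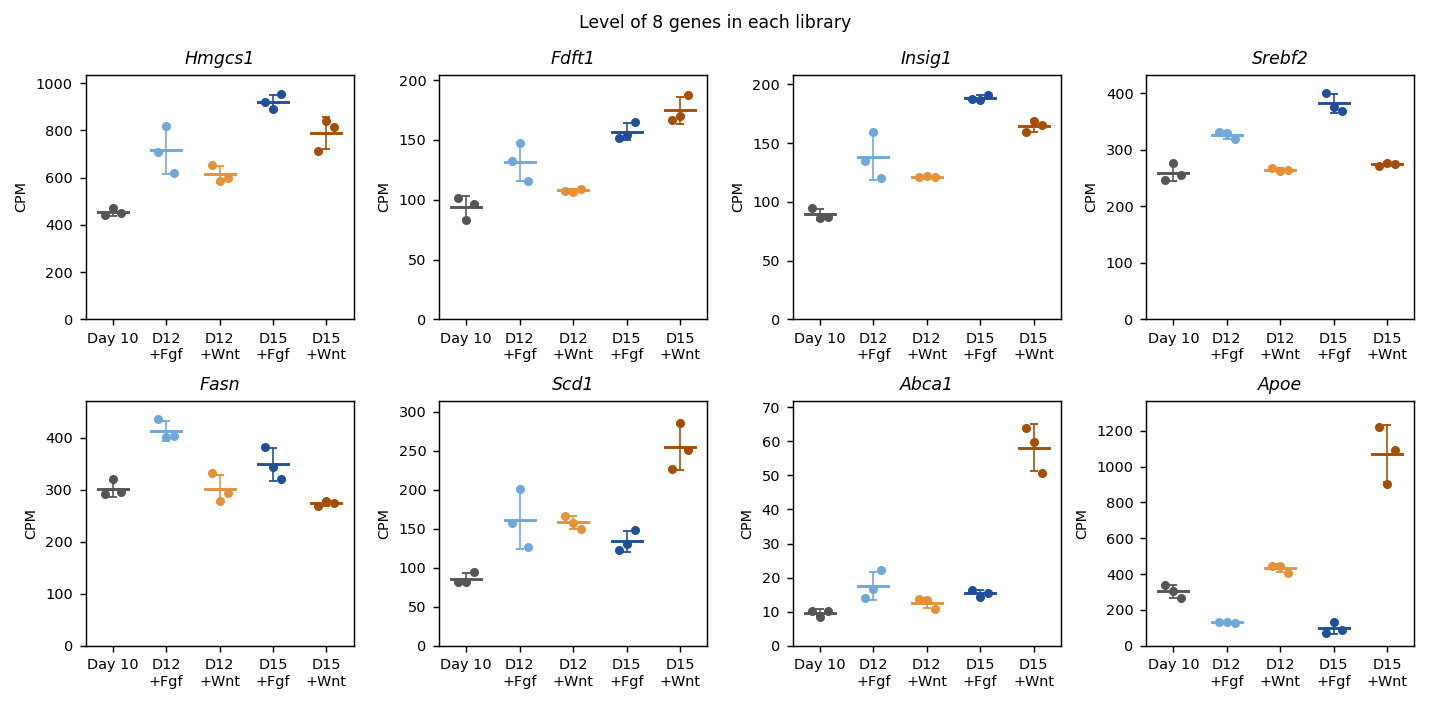
Level in CPM (vertical axes, from 0) of 8 genes in each library (points), with group mean (line) and SD (bar), 3 libraries in each of the 5 groups. Hmgcs1, Fdft1 and Insig1 rise on both paths, Srebf2 and Fasn are higher with +Fgf than with +Wnt, and Scd1, Abca1 and Apoe are highest in Day 15 +Wnt.

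The genes of sterol transport and efflux held the widest differences. Apoe, the apolipoprotein that carries exported cholesterol, was at 338, 306 and 264 CPM at Day 10. It fell to 134, 131 and 124 CPM in Day 12 +Fgf and 73.2, 134 and 88.5 CPM in Day 15 +Fgf, and it rose to 446, 447 and 407 CPM in Day 12 +Wnt and 1221, 904 and 1090.3 CPM in Day 15 +Wnt. None of the groups overlapped except Day 12 and Day 15 +Fgf, where replicate 2 of Day 15 stood among the Day 12 libraries. The log2 fold change from Day 10 was -1.66 ± 0.16 (SE, limma adjusted p = 5.62e-08) in Day 15 +Fgf and 1.82 ± 0.16 (SE, limma adjusted p = 1.03e-08) in Day 15 +Wnt. +Fgf over +Wnt, it was -1.74 ± 0.16 (SE, limma adjusted p = 8.41e-08) at Day 12 and -3.48 ± 0.16 (SE, limma adjusted p = 6.72e-12) at Day 15, where the +Wnt mean was 10.9-fold the +Fgf mean. The difference between the Day 12 to Day 15 changes of Apoe was -1.74 ± 0.22 (SE, limma adjusted p = 7.59e-06). The fall within +Fgf from Day 12 to Day 15, -0.44 ± 0.16 (SE), was not called by edgeR (-0.37) or without Day 12 +Fgf replicate 1 (-0.42), Day 15 +Fgf replicate 1 (-0.25) or Day 15 +Fgf replicate 3 (-0.39).

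Abca1, the transporter that loads cholesterol onto apolipoproteins, rose in all 4 groups and most in Day 15 +Wnt. It was at 10.2, 8.42 and 10.2 CPM at Day 10, 14.0, 16.5 and 22.2 CPM in Day 12 +Fgf and 13.6, 13.3 and 10.8 CPM in Day 12 +Wnt. At Day 15 it was at 16.3, 14.3 and 15.5 CPM with +Fgf and 64.02, 59.8 and 50.6 CPM with +Wnt. Every Day 15 +Wnt library was above every other library, 6.04-fold over Day 10 in the mean. The log2 fold change was 2.56 ± 0.14 (SE, limma adjusted p = 5.19e-11) from Day 10, -1.90 ± 0.14 (SE, limma adjusted p = 5.14e-09) for +Fgf over +Wnt at Day 15, and 0.45 ± 0.14 (SE, limma adjusted p = 0.0149) at Day 12, in the opposite direction. The Day 12 call for Abca1 was lost without +Fgf replicate 3 (0.28) or +Wnt replicate 3 (0.35). Its rise in Day 12 +Wnt, 0.37 ± 0.14 (SE), was lost without Day 10 replicate 2 (0.28), Day 12 +Wnt replicate 1 (0.31) or Day 12 +Wnt replicate 2 (0.33).

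Abcg1, a second cholesterol exporter, had the lowest level per length at Day 10 and rose on both paths. It was at 1.64, 1.34 and 1.91 CPM at Day 10, 4.63, 5.86 and 7.47 CPM in Day 12 +Fgf and 5.79, 6.06 and 5.83 CPM in Day 12 +Wnt. At Day 15 it reached 17.1, 13.5 and 11.2 CPM with +Fgf and 8.93, 12.8 and 8.91 CPM with +Wnt, groups that overlapped. The rise from Day 10 was 8.58-fold in the mean for Day 15 +Fgf, with log2 fold changes of 2.88 ± 0.19 (SE, limma adjusted p = 8.04e-10) there and 2.44 ± 0.19 (SE, limma adjusted p = 3.52e-09) in Day 15 +Wnt. +Fgf over +Wnt at Day 15, the value was 0.44 ± 0.19 (SE, limma adjusted p = 0.0507), and it was called without Day 15 +Fgf replicate 3 (0.58) or Day 15 +Wnt replicate 2 (0.61). Stard4, a soluble sterol carrier and known SREBP target, moved with the synthesis enzymes, from 33.5, 33.8 and 33.7 CPM at Day 10 to 60.3, 56.4 and 57.6 CPM in Day 15 +Fgf and 54.3, 57.7 and 61.1 CPM in Day 15 +Wnt. Its log2 fold changes from Day 10 were 0.78 ± 0.068 (SE, limma adjusted p = 2.08e-08) and 0.77 ± 0.068 (SE, limma adjusted p = 1.47e-08), and +Fgf over +Wnt it differed by 0.011 ± 0.068 (SE) at Day 15.

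**Figure D4:**
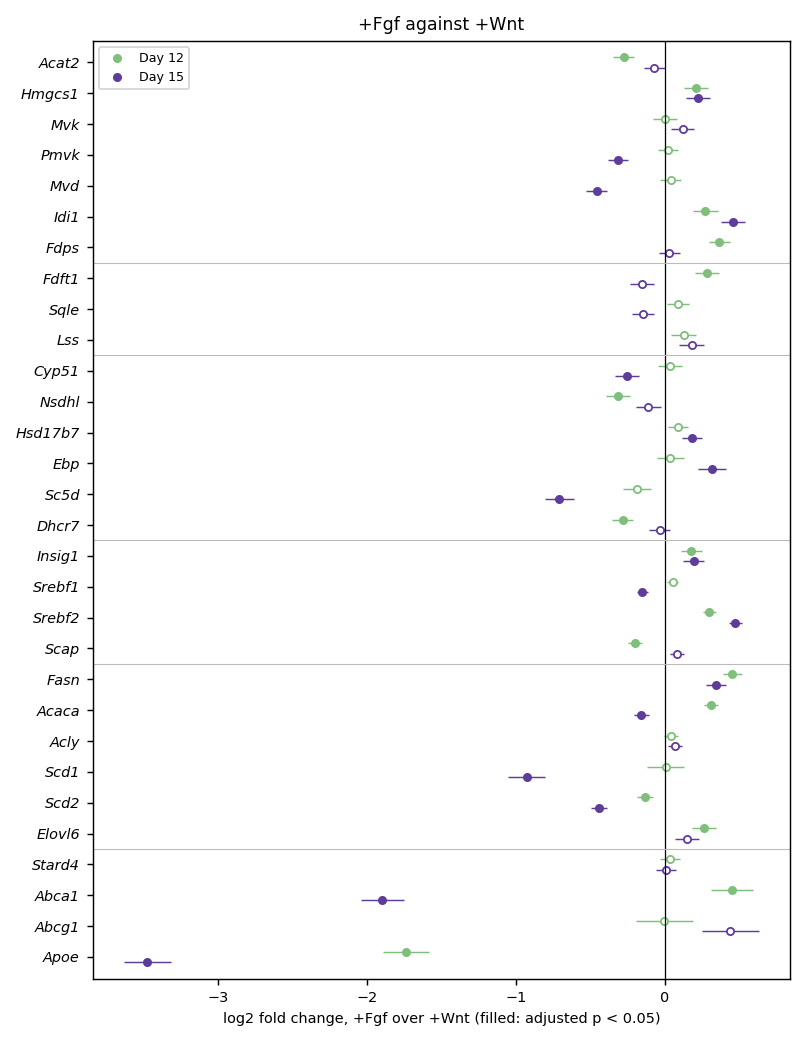
Log2 fold change of +Fgf over +Wnt (points) with its SE (bars) for the 30 genes in role order, at Day 12 (green) and Day 15 (purple). Filled points passed an adjusted p of 0.05 by limma. Apoe lies at -1.74 and -3.48 and Abca1 moves from 0.45 to -1.90, while Srebf2 and Fasn lie to the right of 0 on both days and most sterol enzymes lie within 0.5 of 0.

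In 3 of the 5 groups, both +Fgf groups and Day 15 +Wnt, 1 library was the highest or the lowest for at least 12 of the 16 sterol enzymes. In Day 12 +Fgf, replicate 2 was the highest of the 3 libraries for 16 of the 16 sterol enzymes and replicate 3 the lowest for 15, with sums of 2325, 2593 and 2069 CPM in replicates 1 to 3. For Abca1 and Abcg1 replicate 3 was instead the highest of the 3. In Day 15 +Fgf, replicate 3 was the highest for 14 of the 16, and in Day 15 +Wnt replicate 1 was the lowest for 12. In Day 12 +Wnt no library was the highest for more than 9 or the lowest for more than 7, and at Day 10 replicate 2 was the highest for 11 while the lowest was spread over the 3 libraries. Genes of 1 library are not independent, so these counts describe the libraries only. Without Day 12 +Fgf replicate 2, 26 members were called in Day 12 +Fgf against Day 10 and 12 against Day 12 +Wnt. Of all 13845 genes, 7112 and 6561 were called in these fits.

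Of 30 further genes of the same pathways, 29 had an entry. Against Day 10, 13 of the 29 rose and 4 fell with +Fgf at Day 12, 14 rose and 6 fell with +Wnt at Day 12, 15 rose and 5 fell with +Fgf at Day 15, and 19 rose and 6 fell with +Wnt at Day 15. The 29 were thus called in 58.6%, 69%, 69% and 86.2%, where 55.7%, 60.2%, 72.6% and 79.8% of all genes were. Of all genes, 27.9%, 30.6%, 36.2% and 39.6% rose and 27.8%, 29.6%, 36.4% and 40.2% fell. Against +Wnt, 10 were higher and 8 lower in +Fgf at Day 12, and 6 were higher and 13 lower at Day 15, so that 62.1% and 65.5% were called where 51.5% and 68.7% of all genes were. The shares of all genes were 26.3% higher and 25.2% lower at Day 12 and 38% and 30.6% at Day 15. The 3 with the largest called differences at Day 12 were Acss2, Nr1h3 and Elovl5, given here with the +Fgf libraries first and the log2 value as +Fgf over +Wnt. Acss2, which makes acetyl-CoA from acetate, was at 18.1, 19.4 and 17.4 CPM in Day 12 +Fgf and 35.0, 37.6 and 34.4 CPM in Day 12 +Wnt (log2 -0.95 ± 0.07 SE, limma adjusted p = 7.51e-09) and at 33.5 to 36.3 and 34.2 to 35.4 CPM at Day 15. Nr1h3, a liver X receptor, was at 1.077, 1.78 and 1.21 and 2.77, 2.71 and 2.58 CPM (log2 -0.87 ± 0.23 SE, limma adjusted p = 0.00507), near the filter on low values. Elovl5, an elongase of polyunsaturated fatty acids, was at 177, 172 and 174 and 104, 107 and 108 CPM (log2 0.71 ± 0.043 SE, limma adjusted p = 7.95e-10).

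At Day 15 the 3 were Soat1, Me1 and Elovl7, all lower in +Fgf. Soat1, which esterifies cholesterol for storage, was at 48.9, 53.7 and 52.8 CPM in +Fgf and 168, 159 and 152 CPM in +Wnt (log2 -1.62 ± 0.067 SE, limma adjusted p = 2.7e-12). Me1, the malic enzyme that supplies NADPH for lipid synthesis, was at 24.9, 30.3 and 26.1 and 68.1, 67.0 and 65.9 CPM (log2 -1.30 ± 0.097 SE, limma adjusted p = 3.95e-09). Elovl7, another elongase, was at 1.25, 3.23 and 2.33 and 5.09, 4.92 and 5.12 CPM (log2 -1.13 ± 0.29 SE, limma adjusted p = 0.00223). The groups did not overlap for these 3 genes, but the genes were picked from the same libraries for their large differences. The lack of overlap is thus no further evidence. Across the alternatives run for these 6 differences, 1 call was lost, that of Elovl7 with the RNA integrity number as a covariate (-1.36, limma adjusted p = 0.055).

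Other cell type markers moved alongside these results. The summed level of 9 pigmented epithelium markers was 1020 to 1372 CPM at Day 10. At Day 15 it was 5426 to 6987 CPM with +Wnt and 344 to 417 CPM with +Fgf. The sum of 8 early neuron markers was 85.6 to 152 CPM at Day 10, 297 to 322 and 565 to 796 CPM at Day 12 and 1800.1 to 1935 and 1259.6 to 1581 CPM at Day 15 (+Fgf and +Wnt). The sum of 6 proliferation genes was 2028 to 2212 CPM at Day 10. At Day 15 it was 849 to 917 CPM with +Wnt and 2199.7 to 2328 CPM with +Fgf. Of the 4 macrophage markers, a cell type rich in Apoe and Abca1, Cx3cr1 had 0 reads in every library and Ptprc and Aif1 stayed under 0.3 CPM, while Csf1r was at 19.4, 19.2 and 21.8 CPM in Day 15 +Wnt and at most 1.76 CPM elsewhere. The sum of 6 mesenchyme and neural crest markers was 115 to 146 CPM in Day 15 +Wnt and 33.9 to 46.9 CPM in Day 15 +Fgf, that of 4 glial markers 29.2 to 36.2 and 73.4 to 83.5 CPM, and that of 4 photoreceptor markers 19.7 to 23.5 and 210.0 to 259.7 CPM. At Day 10 these sums were 39.8 to 50.6, 19.2 to 23.4 and 10.8 to 16.5 CPM. The 3 pluripotency markers summed to 19.8 to 23.9 CPM at Day 10, to 0.767 to 7.14 and 10.4 to 26.0 CPM at Day 12 and to 0.283 to 5.15 and 5.71 to 25.1 CPM at Day 15 (+Fgf and +Wnt), lower in every +Fgf library than in every +Wnt library of the same day. The 6 serum response genes summed to 176 to 194 CPM at Day 10. At Day 12 they summed to 229 to 279.9 CPM with +Fgf and 81.0 to 83.6 CPM with +Wnt. At Day 15 the sums were 82.4 to 99.3 and 75.2 to 88.1 CPM, which overlapped. The part of these cell types and programs in the levels of the lipid genes was not tested.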

How the data were processed

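Reads were aligned by the authors to mm10 (TopHat 2.0.8b). They counted fragments per gene of the UCSC transcriptome with Cuffdiff of Cufflinks 2.1.1 and normalized the counts with edgeR 3.2.4. The strand setting of the counting is not given in the sources used here. The deposited values, called CPM (counts scaled to library size), are a normalized signal: their columns sum to 936418 to 1075448, and 100% of the non-zero values are whole multiples of the value of 1 read (0.0620 to 0.0764 CPM by library, tolerance 0.01), so reads were recovered.

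The deposited values were transformed to log2(value + 0.3), and fold changes are on that scale, which understates changes of low genes. Entries with at least 1 CPM in at least 3 samples were tested. The limma trend method (limma 3.58.1, R 4.3.3) fitted 5 group means over the 15 libraries, with Benjamini-Hochberg adjustment over all genes within each of 9 comparisons at 0.05. Alternatives were pseudocounts, filters, quantile and median-of-ratios scaling, an RNA integrity covariate, the replicate number as a block, edgeR 4.0.16 on recovered reads, fits of the compared groups alone and leaving out each library. The procedure was tested on simulated counts in which a small set of genes changed in 1 group. The comparisons here differ, with 47.9% to 79.8% of all genes called, so that test does not vouch for them.

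The members, lists and rules were chosen with earlier results of these data known. All members are named. Of the further pathway genes, the 3 with the largest called differences between +Fgf and +Wnt on each day are named. Promoters came from RefSeq, and positions and overlaps from GENCODE annotation of GRCm38. Counting depth was 12556998 to 16175450 reads per library.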

Additional observations from a re-analysis of the deposited data

Results flagged for a closer look

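For 14 genes the change from Day 12 to Day 15 differed between +Fgf and +Wnt by the interaction term of the limma model (adjusted p under 0.05), 46.7% of the members where 47.9% of all genes were called for this term. Values are log2 differences, the +Fgf change minus the +Wnt change. The largest were those of Abca1, -2.35 (-0.167 with +Fgf, 2.183 with +Wnt), and Apoe, -1.737 (-0.441 and 1.295), the exporter and the carrier of cholesterol. Among the genes of fatty acid synthesis and desaturation, the difference was -0.935 for Scd1 (-0.253 and 0.682), -0.467 for Acaca (-0.239 and 0.229) and -0.309 for Scd2 (0.052 and 0.362). Among the sterol enzymes it was -0.520 for Sc5d, -0.497 for Mvd, -0.437 for Fdft1, -0.337 for Fdps, -0.332 for Pmvk and -0.287 for Cyp51. Among the regulators it was -0.204 for Srebf1, 0.174 for Srebf2 and 0.283 for Scap (-0.042 with +Fgf, not called, and -0.325 with +Wnt). With the RNA integrity covariate, Abca1, Apoe, Acaca and Srebf1 were still called and the other 10 were not.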

How the results depend on the processing

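The counts of members called stayed within 1.5 times of the reported ones under all alternatives run except 1. With the RNA integrity number as a covariate, 7 members instead of 14 were called for the difference between the Day 12 to Day 15 changes. Of all 13845 genes, 3842 instead of 6636 were called for it. The RNA integrity number is lowest in Day 15 +Fgf, and the cause was not tested. Of 270 gene values per alternative, the covariate left 225 on the same side of the threshold in the same direction, removed 35 calls and added 10, edgeR on recovered reads left 253, median-of-ratios scaling 256 and quantile normalization 234. Quantile normalization turned 2 values, Fasn (0.14) and Idi1 (0.22) in Day 15 +Wnt against Day 10. Neither was called in the main fit, and both were called as higher after quantile normalization. Leaving out 1 library gave 26 to 29, 20 to 23, 26 to 27 and 24 to 26 calls against Day 10 (Day 12 +Fgf, Day 12 +Wnt, Day 15 +Fgf, Day 15 +Wnt), 12 to 14 and 20 to 23 from Day 12 to Day 15 (+Fgf, +Wnt), 12 to 16 and 14 to 18 between +Fgf and +Wnt (Day 12, Day 15) and 12 to 16 for the difference of changes. It reversed none of 1800 values and removed 76 calls.

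Samples that share a replicate number did not deviate together: over 30 same-numbered pairs the correlation of deviations ran from -0.253 to 0.245, and it was over 0.1 in 7 pairs. With the replicate block, 28, 21, 27, 25, 14, 22, 16, 17 and 15 members were called in the same order of comparisons, and it changed 2 gene calls. The limits are 3 libraries per group, 1 ES line, bulk tissue, serum in the +Fgf medium only, and counting whose use of strand is not given. Low genes such as Abcg1 and Nr1h3 rest on few reads.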
